A study of Homo sapiens with 2 samples.

Results

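Plasma membrane amino acid transporters bring in the amino acids that a dividing tumour cell uses for protein, nucleotide and glutathione synthesis. Some work alone, and others are light chains that reach the cell surface only when paired with the glycoprotein SLC3A2, also called CD98. Many of these genes are known targets of the amino acid response, in which the kinase GCN2 (EIF2AK4) raises translation of the transcription factor ATF4 when amino acids run short. The 10 genes described here are SLC7A11, SLC7A5, SLC3A2, SLC7A1, SLC1A4, SLC1A5, SLC38A1, SLC38A2, SLC6A9 and SLC6A15. They were taken by name from the 58735 genes of each deposited table, and all 10 were found. The genes were selected on what amino acid transporters do, with their FPKM and ratios in both libraries already known. The values below therefore describe these genes and are not evidence for the choice.

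RNA was sequenced from BT549, a human breast cancer line of the triple-negative, mesenchymal kind. The first of the 2 libraries came from shSIK2 cells, which carried a short hairpin RNA against the salt-inducible kinase SIK2. The other came from scrambled cells, which carried a control hairpin. Wnt3a, a Wnt pathway ligand, had been added to both for 2 h, and the series title concerns SIK2, the Wnt co-receptor LRP6 and stem-like cells. The labels do not say how many hairpins were used or whether the cells were a clone or a pool.

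With 1 library in each group, no difference could be checked against replicates or tested. Read numbers recovered from the deposited values totalled 16347399 in the shSIK2 library and 18019225 in the scrambled library. SIK2 itself stood at 3.56 FPKM in the shSIK2 library and 7.80 FPKM in the scrambled library, from 599 and 1312 reads. FPKM is a read number scaled for gene length and depth. The mesenchymal marker VIM stood at 283 FPKM in shSIK2 cells and 260 FPKM in scrambled cells. The epithelial marker CDH1 was at 0.02 FPKM and 0.10 FPKM, and EPCAM had 0 reads in both libraries. Of the hormone receptor genes, ESR1 had 0 reads in shSIK2 cells and 6 in scrambled cells, and PGR had 0 in both. ERBB2 stood at 6.75 FPKM in shSIK2 cells and 4.96 FPKM in scrambled cells. The luminal factor GATA3 stood at 18.6 FPKM and 11.5 FPKM in the same order. The luminal keratins were higher in the shSIK2 library, with KRT18 at 19.3 FPKM in shSIK2 cells and 2.14 FPKM in scrambled cells, and KRT8 at 0.745 FPKM and 0.110 FPKM in the same order. Any part of this keratin difference in the results below was not tested. None of 12 markers of leukocytes, endothelium, fat and muscle reached 1 FPKM, with 27 reads in all in the shSIK2 library and 25 in the scrambled library.

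Of the 10 transporters, 9 reached 1 FPKM in at least one library and are called measured. All 9 had less signal in the shSIK2 library, and SLC6A15, SLC38A1 and SLC7A5 were at least 2-fold lower. SLC6A15 counted as measured only through the scrambled library, where it was high. Among all 12866 measured genes, 8.28% were at least 2-fold lower and 55.9% were lower by any amount. None of the 9 was at least 2-fold higher, against 11% of all measured genes. The members were picked with these ratios in view, so nothing is read from their counts beside those shares. The median log2 ratio of shSIK2 over scrambled was -0.81 over the 9 genes and -0.11 over all measured genes, on the scale of FPKM plus 0.1. Summed over the 10 genes, the level was 423 FPKM in the shSIK2 library and 732 FPKM in the scrambled library. In bulk RNA, fewer cells that express a gene and less RNA per cell cannot be told apart.

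**Figure D1:**
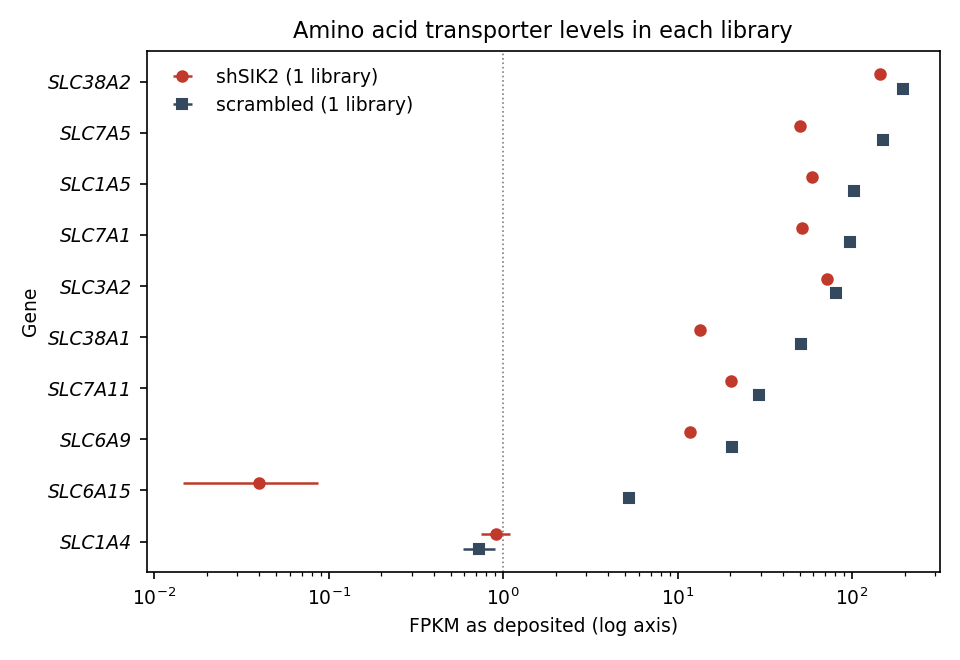
Level of each of the 10 transporters in FPKM (log axis) in the shSIK2 library (circles) and the scrambled library (squares), 1 library each, with exact Poisson 95% intervals that cover counting error only. The dotted line marks 1 FPKM. SLC38A2 is the highest gene in both libraries, and SLC6A15 has the widest gap, with 0.040 FPKM in shSIK2 cells and 5.25 FPKM in scrambled cells.

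The order of the levels differed between the libraries. In shSIK2 cells it ran from SLC38A2 (144 FPKM) through SLC3A2 (72.2), SLC1A5 (58.7), SLC7A1 (51.4), SLC7A5 (50.5), SLC7A11 (20.1), SLC38A1 (13.4), SLC6A9 (11.8) and SLC1A4 (0.91) to SLC6A15 (0.040). In scrambled cells it ran from SLC38A2 (195 FPKM) through SLC7A5 (150), SLC1A5 (103), SLC7A1 (96.9), SLC3A2 (80.9), SLC38A1 (50.8), SLC7A11 (29.2), SLC6A9 (20.5) and SLC6A15 (5.25) to SLC1A4 (0.73). SLC7A5 took rank 5 in shSIK2 cells and rank 2 in scrambled cells, whereas SLC3A2 took rank 2 in shSIK2 cells and rank 5 in scrambled cells. The Poisson intervals of SLC7A1 (50.1 to 52.6 FPKM) and SLC7A5 (49.0 to 52.1 FPKM) overlapped in shSIK2 cells, so counting error alone does not order them. No other pair of neighbours in either order had overlapping intervals. These intervals say nothing of the spread between cultures.

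Several members are known targets of ATF4, and the promoter windows of the members were therefore searched for the core of the C/EBP-ATF response element, TGATGNAA, on both strands. Windows came from RefSeq (GRCh38.p14) and spanned 250 bases before to 50 bases after each annotated start. Of the 10 members, 8 had a window, 14 windows in all, and 5 had a match in at least 1 of them. SLC7A11 and SLC6A15 had no window and were not searched. Over all genes in the table, 4.46% had such a match, and 3.62% of the 35116 windows did. Genes with several starts have more windows in which to find a match. The motif was chosen because some members were known ATF4 targets, so nothing is read from the 5 beside those shares. The 5 matches are shown 5′ to 3′ on the strand of the gene with the motif in capitals, and in SLC1A4 and SLC3A2 the motif reads on the opposite strand.
SLC7A1: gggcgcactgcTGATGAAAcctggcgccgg
SLC38A1: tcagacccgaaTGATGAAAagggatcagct
SLC1A5: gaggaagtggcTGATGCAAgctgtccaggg
SLC3A2: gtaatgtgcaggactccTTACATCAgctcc
SLC1A4: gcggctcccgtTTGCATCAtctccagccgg

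The windows lie at chr13:29595663-29595692 (minus strand) for SLC7A1, chr12:46266502-46266531 (minus) for SLC38A1 and chr19:46784893-46784922 (minus) for SLC1A5. For SLC3A2 and SLC1A4 they lie at chr11:62881719-62881748 (plus) and chr2:64989381-64989410 (plus). The leftmost base of the motif was 7 bases before an annotated start in SLC1A4, 4 before one in SLC38A1 and 97 before one in SLC1A5. In SLC7A1 and SLC3A2 it lay 7 and 37 bases past the first transcribed base. The genes with a match ranged from SLC38A1, 3.78-fold lower in shSIK2 cells, to SLC1A4, which was not lower. SLC7A5, 2.97-fold lower, had no match in its window. A match of letters is a description of the sequence and not a bound site, and no match says only that the letters are not in that window.

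The E-box CACGTG, the letters bound by MYC family factors, was in a window of 2 members, SLC7A5 and SLC1A5, and in 8.77% of all genes with a window. The one in SLC7A5 (chr16:87869620-87869649, minus strand, 130 bases before the start) is shown because this gene had no match to the first motif.
SLC7A5: ggccggacgacgCACGTGctccgagctggg
The core of the antioxidant response element, TGACNNNGC, was in a window of 4 members, SLC1A5, SLC3A2, SLC7A1 and SLC7A5, and in 16.1% of all genes. It overlapped neither of the other motifs in these members.

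The heavy chain and its light chains did not keep one proportion. SLC3A2 (chromosome 11, 62856102 to 62888875, GRCh38, as are all positions below), the CD98 heavy chain, stood at 72.2 FPKM in shSIK2 cells and 80.9 FPKM in scrambled cells, from 6415 and 7189 reads. It was 1.12-fold lower (95% counting interval 1.08 to 1.16). As deposited and at equal read totals it was the measured member nearest to 1, while with the GC and length trend removed SLC38A2 was nearer. After scaling both libraries to equal read totals the ratio was 0.984 (0.951 to 1.02), within counting error.

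SLC7A5 (chromosome 16, 87830023 to 87869488) encodes LAT1, the light chain that exchanges large neutral amino acids such as leucine. It stood at 50.5 FPKM in shSIK2 cells and 150 FPKM in scrambled cells, from 4112 and 12224 reads. It was 2.97-fold lower (2.87 to 3.08), with a log2 ratio of -1.57, and 3.16% of measured genes were at least as low. Its pseudogene SLC7A5P1 had 20 reads in shSIK2 cells and 36 in scrambled cells, and how reads were divided between the copies is uncertain.

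SLC7A11 (chromosome 4, 138164097 to 138242349) encodes xCT, the light chain that imports cystine in exchange for glutamate and so feeds glutathione synthesis. It stood at 20.1 FPKM in shSIK2 cells and 29.2 FPKM in scrambled cells, from 3328 and 4838 reads, and was 1.45-fold lower (1.39 to 1.52). Its log2 ratio of -0.54 was short of the 2-fold rule. The enzymes that follow cystine import in glutathione synthesis lay on both sides of 1. GCLC, the catalytic subunit of glutamate-cysteine ligase, stood at 7.90 FPKM in shSIK2 cells and 6.01 FPKM in scrambled cells. Its modifier subunit GCLM stood at 25.6 FPKM and 29.8 FPKM in the same order. With the GC and length trend removed, the log2 ratio was 0.68 for GCLC and 0.15 for GCLM, both above 0. That of GSS, glutathione synthetase, was -0.18 under the same setting. GCLC, GCLM and GSS were named after their values were seen.

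A ratio between transcripts of one library does not depend on how the libraries are scaled. SLC7A5 stood at 0.699 times the FPKM of SLC3A2 in shSIK2 cells and 1.86 times in scrambled cells, a 2.65-fold lower proportion (2.53 to 2.79, exact conditional interval on reads). For SLC7A11 against SLC3A2 the proportion was 0.279 in shSIK2 cells and 0.361 in scrambled cells, 1.30-fold lower (1.23 to 1.37). Taken against SLC7A11, SLC7A5 was 2.04-fold lower (1.93 to 2.16), so SLC7A5 differed from SLC7A11 as well as from the heavy chain. Such proportions can still depend on the GC content and length of the transcripts. With the GC and length trend removed, the log2 ratios were -1.81 for SLC7A5, -0.27 for SLC7A11 and -0.26 for SLC3A2. The lower proportion of SLC7A11 to SLC3A2 therefore did not remain under that setting.

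The 6 light chains known to pair with SLC3A2 (SLC7A5, SLC7A6, SLC7A7, SLC7A8, SLC7A10 and SLC7A11) were then summed, a grouping made after the values were seen. Their sum was 74.6 FPKM in shSIK2 cells and 183 FPKM in scrambled cells. Set against SLC3A2, this was 1.03 light chain FPKM per heavy chain FPKM in shSIK2 cells and 2.26 in scrambled cells. SLC7A5 made up 67.7% of the sum in shSIK2 cells and 82.0% in scrambled cells. SLC7A11 made up 27.0% in shSIK2 cells and 15.96% in scrambled cells. These are proportions of transcripts, and no protein was measured.

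**Figure D2:**
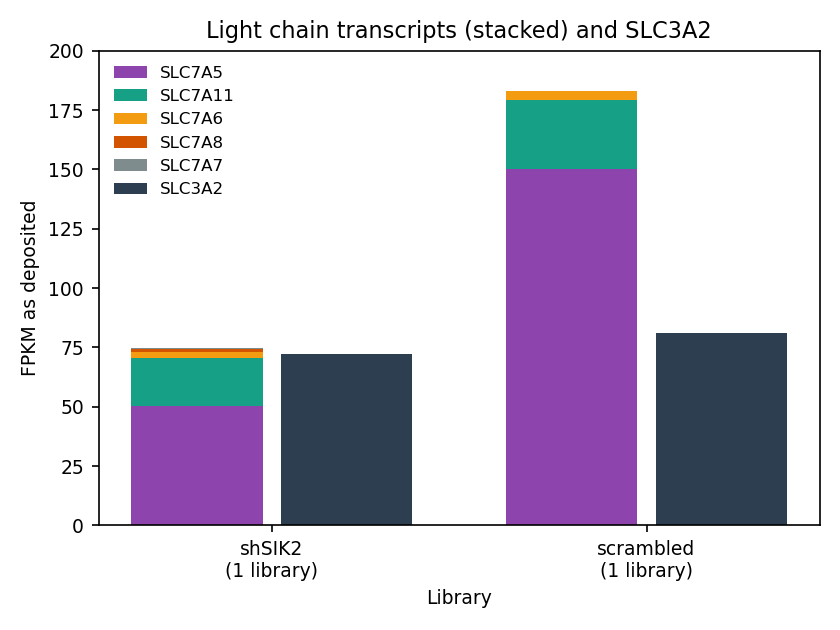
FPKM of the light chain genes (stacked bars) beside that of the heavy chain gene SLC3A2 (dark bars) in the shSIK2 library and the scrambled library, 1 library each. SLC7A10 had 0 reads and is not drawn. The light chain stack reaches 74.6 FPKM in shSIK2 cells, close to the 72.2 FPKM of SLC3A2, and 183 FPKM in scrambled cells, against 80.9 FPKM of SLC3A2.

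The sodium-coupled neutral transporters of the SLC38 family differed from each other although they are neighbours on chromosome 12. SLC38A1 (46183063 to 46270017) encodes SNAT1, which imports glutamine and other small neutral amino acids. It stood at 13.4 FPKM in shSIK2 cells and 50.8 FPKM in scrambled cells, from 2309 and 8732 reads. It was 3.78-fold lower (3.61 to 3.96), and 2.15% of measured genes had a ratio at least as low.

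SLC38A2 (46358189 to 46372867) encodes SNAT2, the related transporter known to be induced when amino acids are scarce. It stood at 144 FPKM in shSIK2 cells and 195 FPKM in scrambled cells, from 16284 and 22101 reads, and was 1.36-fold lower (1.33 to 1.39). The genes lie 88172 bases apart on the same strand. The proportion of SLC38A1 to SLC38A2 was 0.0935 in shSIK2 cells and 0.260 in scrambled cells, 2.79-fold lower (2.65 to 2.93). SLC38A4, the next family member along the chromosome, was below 1 FPKM in both libraries, with 7 reads in shSIK2 cells and 2 in scrambled cells.

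The exchangers of the SLC1 family also parted. SLC1A5 (chromosome 19, 46774883 to 46788594) encodes ASCT2, an exchanger of glutamine and other neutral amino acids. It stood at 58.7 FPKM in shSIK2 cells and 103 FPKM in scrambled cells, from 3359 and 5881 reads, 1.75-fold lower (1.68 to 1.83). Of its exon length, 23.4% is shared with an antisense gene, AC008622.2, which was assigned 3 reads in shSIK2 cells and 8 in scrambled cells. Whether reads were counted by strand is not stated in the labels.

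SLC1A4 (chromosome 2, 64988477 to 65023865) encodes ASCT1, which exchanges alanine, serine and cysteine. It was the member that did not reach 1 FPKM, at 0.91 FPKM in shSIK2 cells and 0.73 FPKM in scrambled cells. Its 108 and 87 reads gave a ratio of 1.24 (0.927 to 1.67), which counting error alone could give. At equal read totals the ratio was 1.37 (1.02 to 1.84).

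SLC7A1 (chromosome 13, 29509410 to 29595688) encodes CAT1, the uniporter of arginine, lysine and ornithine, which needs no heavy chain. It stood at 51.4 FPKM in shSIK2 cells and 96.9 FPKM in scrambled cells, from 6781 and 12787 reads, 1.89-fold lower (1.83 to 1.94). With a log2 ratio of -0.91 it was the nearest member outside the 2-fold rule, and SLC7A5 at -1.57 was the nearest inside it. Its level was 1.02 times that of SLC7A5 in shSIK2 cells and 0.645 times in scrambled cells.

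The sodium- and chloride-dependent SLC6 family held the member with the lowest ratio. SLC6A15 (chromosome 12, 84859488 to 84913615) encodes a transporter of branched-chain amino acids and proline that is known mainly from brain. It had 6 reads in shSIK2 cells and 791 in scrambled cells, which is 0.040 FPKM against 5.25 FPKM. The read ratio was 132-fold lower (60.3 to 360), and the log2 ratio with 0.1 FPKM added was -5.26, which understates the difference at such low values. Of all measured genes, 0.0622% were at least as low. The protein-coding genes that reached 5 FPKM in a library numbered 7206, and among these the nearest log2 ratios were those of PTPRD, a receptor phosphatase (-5.85), and FGF19, a secreted growth factor (-5.87). With 2 libraries, such likeness is that of a single ratio.

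SLC6A9 (chromosome 1, 43991500 to 44031467) encodes GlyT1, a glycine importer. It stood at 11.8 FPKM in shSIK2 cells and 20.5 FPKM in scrambled cells, from 1045 and 1812 reads, 1.73-fold lower (1.61 to 1.87). CCDC24, a gene on the opposite strand that shares 7.83% of its exon length, went the other way with 72 reads in shSIK2 cells and 32 in scrambled cells. For the measured member with the highest ratio, SLC3A2, the genes with the nearest log2 ratio were ABCC5 and JAGN1, both at -0.16.

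**Figure D3:**
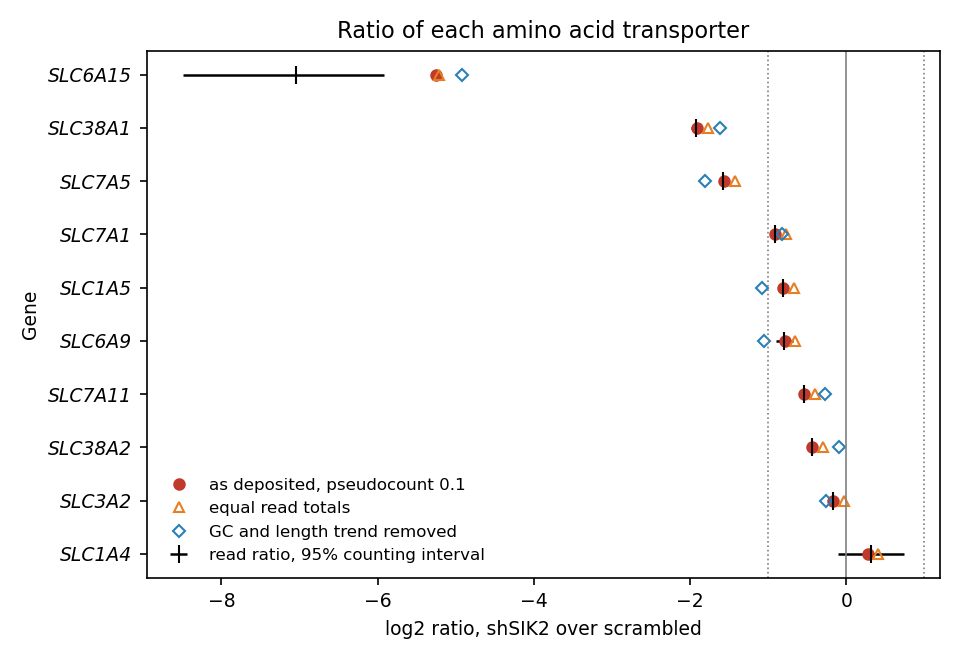
The log2 ratio of shSIK2 over scrambled for each of the 10 transporters, as deposited with a pseudocount of 0.1 FPKM (circles), at equal read totals (triangles) and with the GC and length trend taken out (diamonds, measured genes). Black ticks with lines are read ratios without a pseudocount and their 95% counting intervals, dotted lines mark 2-fold, and 9 of the 10 circles lie below 0.

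Scaling both libraries to equal read totals added 0.14 to the log2 ratio of each gene before the pseudocount, and less for low genes such as SLC6A15 (-5.26 as deposited and -5.22 at equal totals). It brought the median over measured genes to 0.03, against -0.11 as deposited. The 9 measured transporters kept a ratio below 0, as did 48.3% of all measured genes, and the same 3 stayed at least 2-fold lower, against 6.06% of all. The counting interval of the read ratio lay below 1 for 9 of them as deposited, against 42.9% of all measured genes, and for 8 at equal totals, against 34%. SLC3A2 was the exception. The log2 ratio also followed the GC content of the transcript across 10666 measured protein-coding genes (Spearman rho 0.33, a description across genes, which are not replicates). Transcript GC of the members ran from 35.4% in SLC7A11 to 61.3% in SLC1A5. After the trend with GC and exon length was removed, SLC1A5 (-1.08) and SLC6A9 (-1.05) also passed the 2-fold rule, which gave 5 members lower instead of 3, against 6.79% of all measured genes under the same setting. None was at least 2-fold higher, against 10.7% of all. SLC38A2 came to -0.09, SLC3A2 to -0.26 and SLC7A11 to -0.27.

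Most of the remaining plasma membrane amino acid transporters were below 1 FPKM in these cells. Of 29 other genes of this kind, 4 reached 1 FPKM, 11 had 0 reads in both libraries, 1 of the 4 was at least 2-fold higher and 0 were at least 2-fold lower. The median log2 ratio of the 4 was 0.05. At a minimum of 5 FPKM only SLC36A4 was left, at -0.72, against a median of -0.81 for the members. Over all measured genes 11% were at least 2-fold higher and 8.28% at least 2-fold lower. SLC7A8, the LAT2 light chain of small and large neutral amino acids, had 142 reads (1.38 FPKM) in shSIK2 cells and 19 reads (0.185 FPKM) in scrambled cells. It was 7.47-fold higher (4.61 to 12.8), and it counted as measured only through the shSIK2 library, where it was high. In proportion to its relative SLC7A5 its transcript was 22.2-fold higher (13.7 to 38.0), yet SLC7A5 remained 36.6 times as abundant in shSIK2 cells and 812 times in scrambled cells.

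SLC43A2, a facilitator of large neutral amino acids, stood at 1.98 FPKM in shSIK2 cells and 1.27 FPKM in scrambled cells, 1.55-fold higher (1.31 to 1.84). SLC36A4, a transporter of proline and tryptophan, stood at 5.66 FPKM and 9.40 FPKM in the same order, 1.66-fold lower. SLC7A6, the light chain that exchanges arginine for neutral amino acids, stood at 2.46 FPKM and 3.50 FPKM, but 44.4% of its exon length is shared with SLC7A6OS on the opposite strand, so its share of reads is uncertain. SLC38A3, a glutamine transporter named after its value was seen, had 51 reads in shSIK2 cells and 0 in scrambled cells. It was below 1 FPKM in both libraries, at 0.749 FPKM in shSIK2 cells. The lower limit of its counting interval was 13.3-fold higher in shSIK2 cells.

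The whole solute carrier family leaned the other way by count at the 1 FPKM filter. Of 146 measured genes with an SLC symbol, 5 (3.42%) were at least 2-fold lower and 27 (18.5%) at least 2-fold higher. Over all measured genes these shares were 8.28% and 11%. Such counts depend on level, since at a minimum of 5 FPKM 551 of all genes were at least 2-fold lower and 430 higher. The SLC family was not counted at that minimum. Among the 5 were SLC6A15, SLC38A1, SLC7A5 and the mitochondrial aspartate-glutamate carrier SLC25A13. Over the 137 SLC genes that are not members the median log2 ratio was 0.25. Lysosomal and vesicular amino acid transporters had 8 measured genes, 0 at least 2-fold lower and 1 higher (median 0.07). Within that list SLC17A7, a vesicular glutamate transporter, was 2.57-fold higher (1.87 to 3.59) and SLC38A9, the arginine sensor of the lysosome, 1.83-fold higher (1.55 to 2.18). SLC17A7 reached 1 FPKM only in the shSIK2 library (1.35 FPKM, against 0.523 FPKM in scrambled cells). CTNS, the lysosomal cystine exporter, stood at 10.9 FPKM in shSIK2 cells and 13.6 FPKM in scrambled cells, and MFSD12, which imports cysteine into lysosomes and melanosomes, at 39.02 FPKM and 32.4 FPKM. Mitochondrial carriers had 10 measured genes, 1 lower and 1 higher (median -0.15). SLC25A13 was 2.43-fold lower and SLC25A29, a carrier of basic amino acids, 2.5-fold higher. The ornithine carrier SLC25A15 was 1.56-fold lower and SFXN3, a serine transporter, 1.92-fold higher.

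Regulators and markers of the amino acid response were measured in full, and 6 of 20 were at least 2-fold lower, 1 higher and 13 between (median -0.80). Over all measured genes 8.28% were at least 2-fold lower and 11% higher. At equal read totals CEBPG (-0.97) and ASNS (-0.90), both named after their values were seen, fell short of 2-fold. Under that setting 6.06% of all measured genes were at least 2-fold lower. ATF4 stood at 155 FPKM in shSIK2 cells and 202 FPKM in scrambled cells, 1.30-fold lower (1.26 to 1.34). EIF2AK4 stood at 5.23 FPKM and 7.25 FPKM in the same order, and DDIT3, the stress factor CHOP, at 130 FPKM and 211 FPKM. ATF4 is regulated mainly in translation, which these transcripts do not show. ATF5 and ATF3, transcription factors of the response, were at 7.16 FPKM and 8.21 FPKM in shSIK2 cells, against 22.2 FPKM and 23.0 FPKM in scrambled cells. SESN2, a leucine sensor, was at 29.8 FPKM against 88.4 FPKM, and VLDLR, a lipoprotein receptor gene, at 3.08 FPKM against 8.66 FPKM. The 1 gene at least 2-fold higher was EIF2AK3, the endoplasmic reticulum stress kinase PERK, named after its value was seen, at 4.49 FPKM in shSIK2 cells against 1.65 FPKM in scrambled cells.

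**Figure D4:**
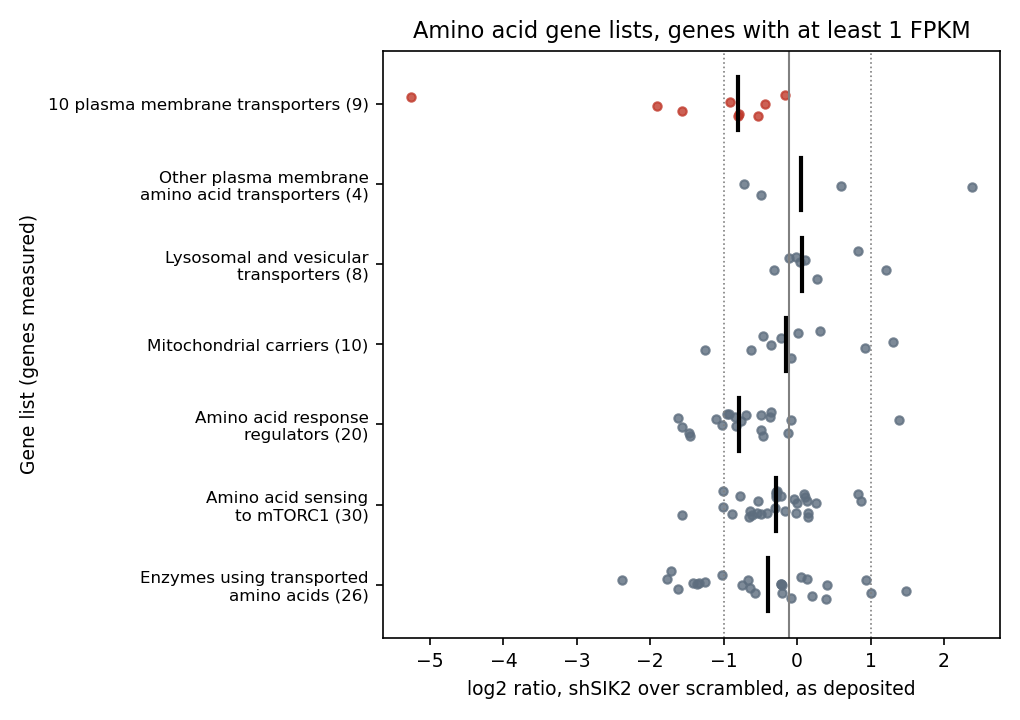
Log2 ratios of shSIK2 over scrambled, as deposited, for the measured genes of 7 lists (1 point per gene, jittered vertically), with each list's median as a black bar, the median of all 12866 measured genes as a grey line and 2-fold as dotted lines. The 9 measured plasma membrane transporters (red) have a median of -0.81 and the 20 response genes one of -0.80, while the 8 lysosomal and vesicular transporters have a median of 0.07.

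Genes that pass amino acid levels on to the growth kinase mTORC1 had 30 measured genes, of which 3 passed 2-fold downwards and 0 upwards (median -0.29). The 3 make up 10%, near the 8.28% of all measured genes that were at least 2-fold lower, and 11% of all were at least 2-fold higher. Beside SESN2 the genes that passed downwards were RRAGC, a Rag GTPase at 8.40 FPKM in shSIK2 cells against 17.0 FPKM in scrambled cells, and SEH1L. SEH1L, a GATOR component, was at 3.41 FPKM against 6.97 FPKM. At equal read totals RRAGC and SEH1L each came to a log2 ratio of -0.87, short of 2-fold. MIOS, another GATOR component, was at 5.02 FPKM against 9.37 FPKM, short of 2-fold. Not all GATOR components were lower, and SEC13, named after its value was seen, was at 20.7 FPKM against 11.3 FPKM, 1.83-fold higher. Enzymes that use the transported amino acids had 26 measured genes, 9 of them (34.6%) at least 2-fold lower and 2 (7.69%) higher (median -0.40), beside the same shares of all measured genes. The lowest ratios were those of the serine synthesis enzyme PHGDH (2.49 FPKM in shSIK2 cells and 13.4 FPKM in scrambled cells), the branched-chain transaminase BCAT1 (2.87 and 10.04 FPKM) and the arginine synthesis enzyme ASS1 (3.69 and 12.4 FPKM). Next came PSAT1, also of serine synthesis (118 and 361 FPKM). Among the higher enzymes was ARG2, an arginase named after its value was seen, at 7.73 FPKM in shSIK2 cells and 3.81 FPKM in scrambled cells.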

How the data were processed

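Per the labels' protocols, RNA was taken up in Trizol and libraries followed standard Illumina steps. The submitters' processing notes name HISAT2 2.0.5 and hg18. The counter, its annotation and any use of strand are not stated there. The authors deposited FPKM for 58735 genes per library, per the file headers. All identifiers matched GENCODE release 29 (GRCh38), which gave symbols, positions and exon lengths. That build differs from the one in the notes.

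FPKM times exon length was a whole multiple of 1 step, the same in both tables, for 100% of values above 0 (tolerance 0.001, widened in proportion for high counts). The multiples were taken as reads. The step is that of 1 divisor, the geometric mean of both read totals, so the deposited values are not scaled to each library's own total.

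Samples were grouped by title. Log2 ratios are of shSIK2 over scrambled, on FPKM plus 0.1, for genes that reached 1 FPKM in either library. Folds are ratios of reads with exact Clopper-Pearson 95% intervals, conditional on the sum. Intervals cover counting error only. Lists were counted at 2-fold, with no test. GC is that of the longest transcript, and trends were removed by medians in 20 bins, repeated once. Named were the members, SIK2, every other measured plasma membrane transporter, up to 4 genes per other list with the largest absolute ratio, ATF4, EIF2AK4, DDIT3 and, for SLC6A15 and the highest member, the 2 genes of nearest ratio. Others, such as cell markers and genes marked so, were named after their values were seen. Members and lists were chosen with earlier results of these data known. A planned comparison of member proteins was not made. Some genes in the counts are not reported here by name. Read recovery, the 2-fold rule, intervals and trend removal were tested on simulated data. Work was done in Python 3.11.15 (scipy 1.17.1, numpy 2.4.6, pandas 2.3.3), and figures were drawn with matplotlib 3.10.9.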

Additional observations from a re-analysis of the deposited data

How the results depend on the processing

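Over 7 alternatives (2 pseudocounts, 2 filters, 2 scalings and trend removal) the 9 measured transporters kept their sign in all 63 values, and SLC7A5, SLC38A1 and SLC6A15 stayed at least 2-fold lower. SLC6A15 ranged from -6.72 with 0.01 FPKM added to -2.59 with 1 FPKM added. Trend removal gave 5 transporters at least 2-fold lower and a median of -1.05, and equal read totals a median of -0.67. At least 2-fold lower among all genes were 621 with 1 FPKM added (760 higher), 2619 without a filter (4008 higher) and 551 at a minimum of 5 FPKM (430 higher), against 1065 and 1414 as reported. Equal read totals gave 780 lower and 1729 higher, and trend removal 873 and 1373. Of the other plasma membrane transporters, 2 were at least 2-fold higher without a filter and 0 at 5 FPKM, where the 1 gene left set the median at -0.72. The causes of these shifts were not tested, beyond the number of genes that a filter leaves. With 1 library per group none could be left out. No paired analysis was possible because each group holds 1 library. Depth limits SLC6A15, with 6 reads in shSIK2 cells, and SLC1A4.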
